A study of Mus musculus with 40 samples.

Results

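The 7 lysosomal cathepsins described here are Ctsz, Ctsh, Ctsc, Ctsd, Ctsb, Ctsl and Ctss, chosen by symbol from 55260 gene symbols in 4 of the deposited tables and 55286 in the table of the LO libraries. The choice followed the levels of Ctsz in libraries labelled ALL-VC, so every contrast with ALL-VC is given as a description without a test. Values are TPM, a measure of transcript abundance scaled for transcript length and to a fixed total in each library. All 40 libraries came from mouse lung: distal tip epithelium taken from embryos, or branching organoids grown from such tips. Strain, genotype and sex were not given in the sources used here.

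Of these, 4 were tips (1 library for each day from E10.5 to E13.5) and 10 were organoids, named by the embryonic day of the starting tip and the days in culture (E9.5 to E14, 11 to 32 days, 1 each). The numbered culture groups, with n = 2 each, were labelled ALL, ALL-VC, ALL-MTG and ALL-FGF10. A further 5 libraries were 2C, 2C+F10, 2C+MTG, 2C+VC and an ALL library without a number, and 4 were LO_day8, LO_day11, LO_day18 and LO_day11_DCI. The last 9 were 1 library labelled intact and 8 labelled as cut pieces by position. The labels do not say whether these pieces came from the same organoid. The labels do not define ALL, VC, MTG, F10, 2C, DCI or LO, and reading minus as an omission and plus as an addition is an assumption. Nothing in the labels says that libraries of a group came from separate animals or cultures, so the p-values below reflect the spread among these libraries alone, which may be technical.

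Cathepsins are proteases that are made as inactive precursors, tagged with mannose 6-phosphate, carried to the lysosome and activated in its acid lumen. Most are cysteine proteases, and Ctsd is an aspartic protease. In the lung, alveolar type 2 (AT2) cells hold surfactant in lamellar bodies, organelles related to lysosomes, and Ctsh takes part there in trimming the surfactant protein precursors. Some lysosomal genes carry a CACGTG-type element that the transcription factor TFEB and its relatives can bind, and many housekeeping promoters carry the GC box GGGCGG.

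In the GENCODE M21 annotation of GRCm38, all 7 are protein-coding genes. Ctsz lies on chromosome 2 from 174427493 to 174439039 (minus strand, 6 exons). Its annotated span overlaps the opposite-strand gene Nelfcd by 10 bases. Ctsh lies on chromosome 9 from 90054152 to 90076089 (plus strand, 12 exons), and Ctsc on chromosome 7 from 88278085 to 88310888 (plus strand, 7 exons). Ctsd lies on chromosome 7 from 142375911 to 142388038 (minus strand, 9 exons). Ctsb lies on chromosome 14 from 63122462 to 63145923 (plus strand, 10 exons) and overlaps the opposite-strand gene Fdft1 by 774 bases. Ctsl lies on chromosome 13 from 64359337 to 64370890 (minus strand, 9 exons), and Ctss on chromosome 3 from 95526786 to 95556403 (plus strand, 8 exons). Whether the authors' counting used strand was not given in the sources used here, so reads within the overlaps may be shared.

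Promoter windows from RefSeq (GRCm38.p6, 250 bases before to 50 after the start site) were found for 5 of the 7, namely Ctsz, Ctsc, Ctsd, Ctsl and Ctss. On either strand, CACGTG stood in 7.15% of 32851 windows of this length in the genome, the longer palindromic CLEAR element, which contains it, in 0.326%, and GGGCGG in 35.7%. Among the cathepsins, CACGTG stood in the windows of Ctsd and Ctsl, GGGCGG in those of Ctsz, Ctsc, Ctsd and Ctss, and the longer element in none of the 5. The Ctsl window (chr13:64370471-64370770) lies wholly inside the GENCODE span of that gene, so its element is not upstream of the annotated gene. The bases before the start of Ctsz and Ctsc are shown because the levels of Ctsz set the ALL-VC libraries apart and those of Ctsc spanned a wide range between tips and organoids. Capitals mark GGGCGG or its complement CCGCCC, at chr2:174439040-174439289 (minus strand) for Ctsz and chr7:88277835-88278084 (plus strand) for Ctsc, both written 5′ to 3′ along the gene.
Ctsz: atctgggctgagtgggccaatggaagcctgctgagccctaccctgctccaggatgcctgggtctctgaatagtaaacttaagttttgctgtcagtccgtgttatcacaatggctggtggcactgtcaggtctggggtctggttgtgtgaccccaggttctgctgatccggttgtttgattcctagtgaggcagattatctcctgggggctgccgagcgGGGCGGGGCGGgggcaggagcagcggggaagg
Ctsc: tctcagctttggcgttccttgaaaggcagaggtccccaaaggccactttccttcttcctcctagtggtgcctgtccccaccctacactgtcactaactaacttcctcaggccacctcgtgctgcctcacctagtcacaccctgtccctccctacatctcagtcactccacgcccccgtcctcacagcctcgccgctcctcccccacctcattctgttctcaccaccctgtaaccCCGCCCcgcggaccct

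Ctsd is shown for contrast, as its level moved least across the 40 libraries. Its window held CACGTG at 2 places, 245 and 98 bases before the RefSeq start site, and capitals mark it in the 30 bases around each (chr7:142388048-142388077 and chr7:142387908-142387937, minus strand). The nearer place lies inside the GENCODE span of Ctsd.
Ctsd, farther element: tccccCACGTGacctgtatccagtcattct
Ctsd, nearer element: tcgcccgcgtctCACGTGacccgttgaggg
These matches describe letters in the reference and not binding in these samples.

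Between 13036 and 14418 genes reached 1 TPM, mitochondrial genes took 6.54 to 8.29% of the total in tips and 11.3 to 15.2% in organoids, without overlap, and sequencing depth cannot be read from TPM. The 6 lung epithelium markers (Epcam, Cdh1, Nkx2-1, Krt8, Krt18 and Cldn6) were above 0 in every library. The 7 AT2 markers (Sftpc, Sftpb, Sftpa1, Abca3, Slc34a2, Lamp3 and Lyz2) summed to 140 to 294 TPM in tips and to 54254 to 135041 TPM in organoids. The 15 markers of macrophages and other blood cells, cells rich in cathepsins, summed to 5.86 to 19.3 TPM in tips and 1.61 to 8.91 TPM in organoids.

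Ctsz encodes a carboxypeptidase that removes residues from the C-terminal end of proteins. Its level was 90.88 and 123.75 TPM in the ALL libraries, 97.37 and 106.56 in ALL-FGF10, and 134.22 and 104.45 in ALL-MTG. In the ALL-VC libraries it was 1.26 and 4.65 TPM. Both ALL-VC values lay below every other library of the series, and the other 6 numbered libraries did not separate by group. As a description, the difference of log2(TPM + 1) between ALL-VC and ALL was -4.91 (SE 0.40, means 2.96 ± 2.40 and 107 ± 23.2 TPM, SD, n = 2 each). Against ALL-FGF10 it was -4.85 and against ALL-MTG -5.06. These 3 contrasts share the ALL-VC libraries. Fewer cells of a type and less RNA per cell cannot be told apart in such bulk libraries.

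Other genes and cell markers beside this difference were as follows. Nelfcd, the overlapping gene, stood at 29.38 to 30.74 TPM in ALL and 36.14 to 39.42 TPM in ALL-VC. Of the blood cell markers, Ptprc, Adgre1, C1qa, Tyrobp, Fcer1g and Spi1 were listed at 0 in both ALL libraries, and the 15 markers summed to 4.53 to 4.62 TPM in ALL and 1.22 to 5.43 TPM in ALL-VC. The 9 mesenchyme markers summed to 4.69 to 105 TPM in ALL and 0.93 to 1.71 TPM in ALL-VC. Their sum was also low in ALL-FGF10, at 0.68 to 1.50 TPM, where Ctsz was 97.37 and 106.56 TPM. The AT2 markers summed to 62891 to 97567 TPM in ALL and 66066 to 72647 TPM in ALL-VC, ranges that overlap, though 2 of the 7 were past a log2 difference of 1 and lower. The 6 markers of alveolar type 1 (AT1) cells (Ager, Pdpn, Hopx, Aqp5, Cav1 and Rtkn2) summed to 1503 to 1693 TPM in ALL and 1223 to 1227 TPM in ALL-VC, without overlap, with 2 of 6 past that difference and lower. Among all genes, 4.16% were past that difference and lower. The part of these markers in the Ctsz level was not tested.

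The unnumbered libraries also differed widely in Ctsz. Ctsz was 9.34 TPM in 2C, 8.56 in 2C+MTG and 11.89 in 2C+F10, against 147.11 TPM in 2C+VC and 135.70 in the unnumbered ALL library. The 3 libraries whose names carry neither VC nor ALL were the low ones. The log2(TPM + 1) difference from 2C was 3.84 in 2C+VC and 3.72 in the unnumbered ALL library, with 1 library each and so no replicate check. In the unnumbered ALL library the mesenchyme markers summed to 1.74 TPM.

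**Figure D1:**
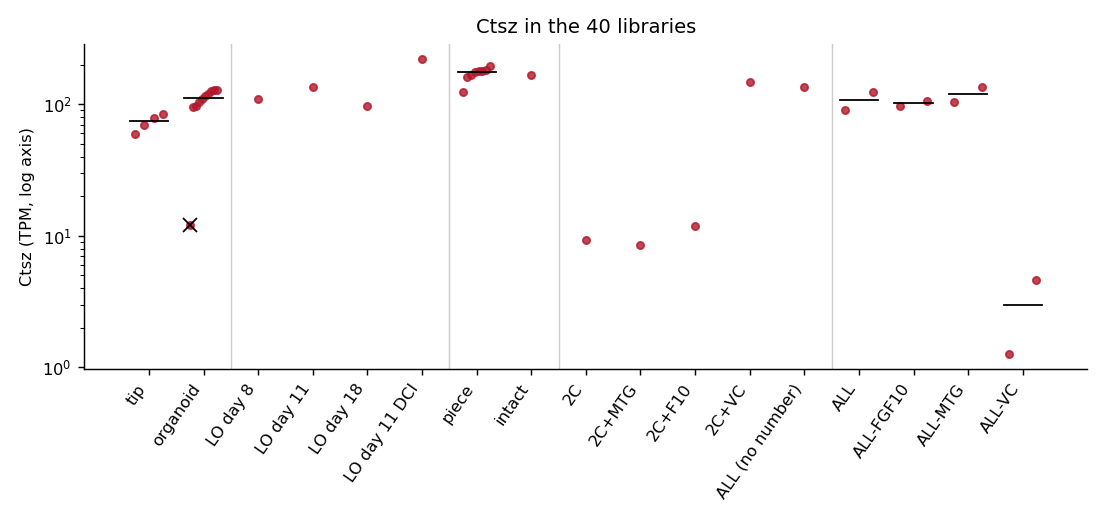
Level of Ctsz in each of the 40 libraries (TPM, log axis), grouped by label, with 1 point per library sorted by value within a group, bars at the medians and a cross on the organoid from E9.5 at 13 days. The 2 ALL-VC libraries stand at 1.26 and 4.65 TPM, and 2C, 2C+MTG, 2C+F10 and the E9.5 organoid stand between 8.56 and 12.15 TPM, below all others.

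Across the series Ctsz ran from 1.26 TPM in ALL-VC to 221.27 TPM in LO_day11_DCI, with a median of 112 TPM. The 6 lowest libraries were the 2 of ALL-VC, 2C+MTG, 2C, 2C+F10 and the organoid from E9.5 at 13 days (12.15 TPM). The next in order was the E10.5 tip at 59.28 TPM, and from there the levels followed each other closely. Among the 6, the 4 without replicates lay between 8.56 and 12.15 TPM and cannot be ordered. ALL, ALL-FGF10 and ALL-MTG overlapped one another, and the organoids other than the E9.5 one (95.65 to 128.29 TPM) overlapped the ALL values.

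The other cathepsins did not share this pattern. Ctsb, which cuts proteins both internally and from the C-terminal end, was 289.95 and 337.59 TPM in ALL and 214.55 and 227.63 TPM in ALL-VC, without overlap (log2 difference -0.50). Ctsd, the main aspartic protease of the lysosome, was 262.93 and 273.10 TPM in ALL and 289.32 and 312.32 TPM in ALL-VC, also without overlap (0.17). Ctsh, an aminopeptidase, was 1890.35 and 998.56 TPM in ALL and 1172.18 and 897.10 TPM in ALL-VC, which overlap (-0.42). Ctsc, a dipeptidyl peptidase that activates serine proteases of granules, was 747.36 and 560.24 TPM in ALL and 704.49 and 686.01 TPM in ALL-VC, which overlap (0.10). Ctsl, an endopeptidase, was 168.36 and 166.38 TPM in ALL and 148.50 and 168.28 TPM in ALL-VC, which overlap (-0.08).

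Of the 6 cathepsins that passed the filter, 1 (Ctsz) was past a log2 difference of 1 between ALL-VC and ALL, and it was lower. Among all genes whose higher group reached 5 TPM, 8.62% were past that size and 4.16% were lower. The same count against ALL-FGF10 was 1, where 9.69% of genes were past it and 4.6% were lower. Against ALL-MTG it was also 1, where 7.37% were past it and 3.66% were lower. The median over all genes of ALL-VC against ALL was 0.18, and rescaling each library by its median ratio brought it to 0. Under that rescaling Ctsd (-0.04) and Ctsc (-0.11) turned negative, whereas Ctsz (-5.08) kept its sign.

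**Figure D2:**
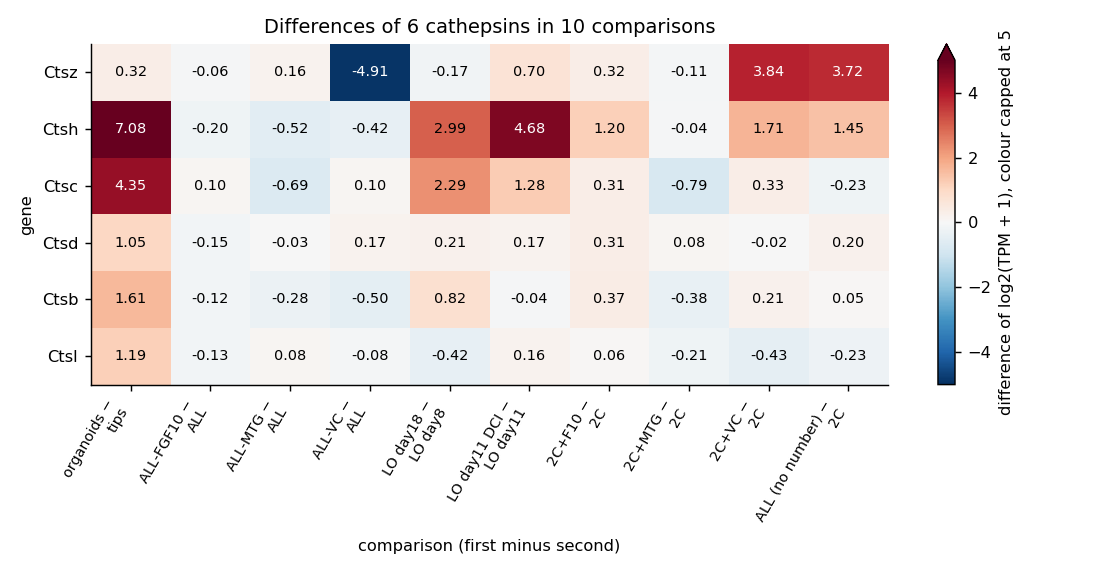
Differences of log2(TPM + 1) of 6 cathepsins in each comparison, colored from lower to higher, with the value printed in each cell. Ctsz carries the values beyond 3 in the comparisons of ALL-VC with ALL and of 2C+VC and the unnumbered ALL library with 2C, and Ctsh and Ctsc carry the largest of organoids against tips, of LO_day18 against LO_day8 and of LO_day11_DCI against LO_day11.

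Ctss, an endopeptidase that stays active at neutral pH and is known from antigen-presenting cells, was listed at 0 in 36 of the 40 libraries. It was 0.86, 2.14 and 0.51 TPM in the E11.5, E12.5 and E13.5 tips, and 0.15 TPM in the organoid from E13.5 at 19 days. With 1 TPM or more in 1 library, it did not pass the filter and was not tested in any fit. The depth behind these zeros is unknown, so a listing at 0 is given as such.

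Whether organoids differed from the tips they grow from was asked next. Ctsh, Ctsc, Ctsb, Ctsl and Ctsd were all higher in organoids, with no overlap between the 10 organoid and 4 tip libraries. The share of all genes without such overlap was not counted. Ctsh was 4.74, 3.23, 7.95 and 8.98 TPM in the tips from E10.5 to E13.5, and 416.43 TPM at the lowest, 953 at the median and 1468.69 at the highest organoid. Its log2 change was 7.08 (SE 0.30, limma adjusted p = 1.0e-10, means 981 ± 344 and 6.23 ± 2.69 TPM, SD, n = 10 and 4). Ctsc was 12.09, 12.45, 14.44 and 25.47 TPM in the tips, and 194.29, 342 and 526.23 TPM at the lowest, median and highest organoid. It rose by 4.35 (SE 0.25, adjusted p = 2.1e-09, limma). Of the 6 cathepsins that were tested, these 2 had the lowest mean TPM in tips and the highest in organoids, on a scale that accounts for transcript length.

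The other 3 started from higher levels. Ctsb was 56.02, 104.50, 73.78 and 86.36 TPM in tips and 180.08 to 325.10 TPM in organoids (log2 change 1.61, SE 0.17, adjusted p = 5.9e-07, limma). Ctsl was 75.16, 77.81, 65.27 and 57.78 TPM in tips and 117.65 to 189.38 TPM in organoids (1.19, SE 0.12, adjusted p = 4.0e-07, limma). Ctsd was 94.57, 95.19, 97.51 and 103.44 TPM in tips and 171.04 to 235.75 TPM in organoids (1.05, SE 0.08, adjusted p = 2.0e-08, limma). Relative to its mean, Ctsd had the narrowest spread of the 6, with an SD of 18.4 TPM around 205 TPM in organoids and 4.04 TPM around 97.7 TPM in tips.

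Ctsz was not called. It was 59.28, 70.01, 78.74 and 84.88 TPM in tips, and the organoids ran from 12.15 to 128.29 TPM with a median of 112 TPM. The E9.5 organoid lay below every tip and the other 9 lay above every tip. The log2 change over all 10 organoids was 0.32 (SE 0.46, adjusted p = 0.555, limma). Without the E9.5 organoid it was 0.63 with an adjusted p of 0.000134, an alternative added after the values were seen.

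In all, 5 of 6 cathepsins tested were called higher and none lower. Calls are frequent in this comparison: 61.9% of 16779 genes were called, 21.7% higher and 40.2% lower. The median log2 change was 1.40 over the 6 cathepsins and -0.20 over all genes tested. Median-ratio rescaling moved the latter to 0.06 and that of the cathepsins to 1.71, with 5 of 6 called higher, and gave 5070 genes called higher and 5248 lower where the unscaled values gave 3640 and 6752. The AT2 marker sums and the mitochondrial shares given above moved with this comparison. So did the sum of the 6 AT1 markers, at 43.4 to 87.1 TPM in tips and 528 to 1714 TPM in organoids. The mesenchyme markers summed to 98.1 to 213 TPM in tips and 2.95 to 343 TPM in organoids, with 6 of 9 called lower. The part of all these in the cathepsin levels was not tested.

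**Figure D3:**
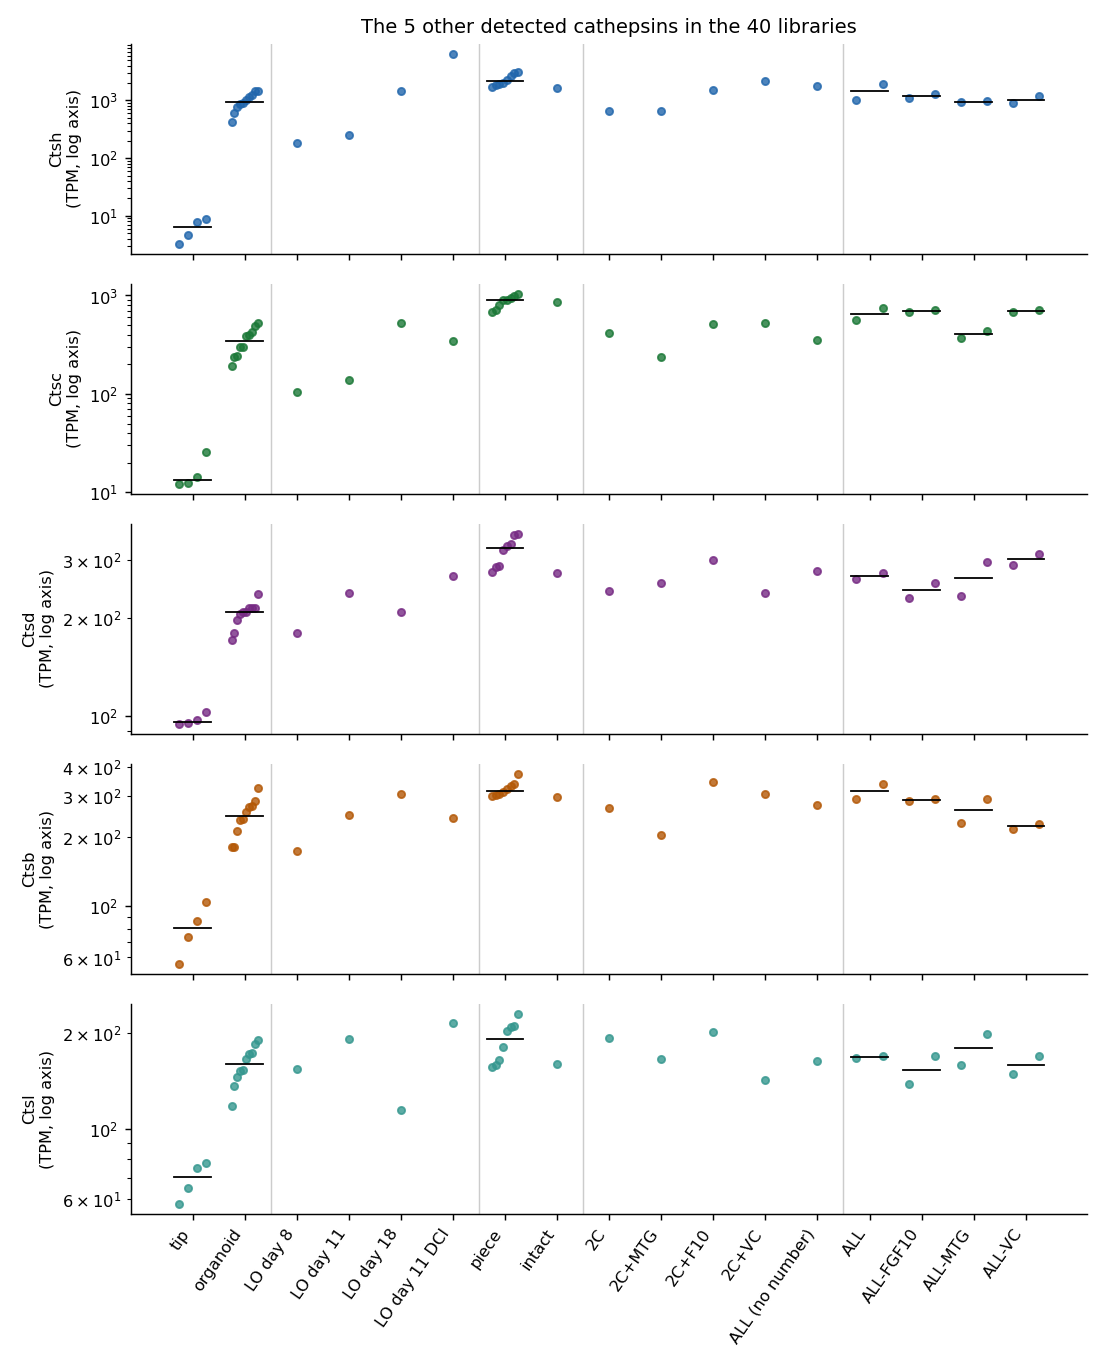
Levels of Ctsh, Ctsc, Ctsd, Ctsb and Ctsl in each of the 40 libraries (TPM, log axes), grouped by label, with 1 point per library sorted by value within a group and bars at the medians. For each of the 5 genes the 4 tips lie below all other libraries, and the span of the remaining libraries is narrow for Ctsd, Ctsb and Ctsl and wide for Ctsh.

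Within organoids and within tips, no cathepsin followed time or stage at the threshold. For culture day, 0 of 6 were called, where 9.64% of all genes were (498 higher and 1119 lower, or 705 and 474 after median-ratio rescaling). Over the range of 21 days, Ctsb had a slope of 0.48 on the log2 scale (unadjusted p = 0.039, adjusted p = 0.169, limma) and Ctsc of 0.59 (adjusted p = 0.290). For the stage of the starting tip, 0 of 6 were called, where 0.0536% of all genes were. Over 4.5 days of stage, Ctsh had a slope of 0.85 (unadjusted p = 0.041, adjusted p = 0.646). Ctsz had one of 1.33 (adjusted p = 0.671), which was 0.06 without the E9.5 organoid. For embryonic day in tips, 0 of 6 were called, where 0.733% of genes were, and the estimates over 3 days were 1.04 for Ctsh and 0.97 for Ctsc. Of these 18 slopes, the 2 given with an unadjusted p were the only ones with that p under 0.05.

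The wider lysosomal system was read from lists drawn up by function. In organoids against tips, 21.7% of all genes tested were called higher and 40.2% lower. Among 7 other cathepsins, 4 were tested and 3 were called higher in organoids. They were the aspartic protease gene Ctse (71.2 ± 46.7 against 1.26 ± 0.961 TPM, SD, log2 change 4.85), Ctso (2.69) and Ctsa, which protects lysosomal glycosidases (1.10). Of 9 genes listed as cathepsin inhibitors, 5 were tested and 3 were higher: Serpinb9 (2.04), Cstb, encoding cystatin B (1.07), and Cst3, encoding cystatin C (0.71). Serpinb9 encodes an inhibitor of serine proteases and is not established as an inhibitor of the cathepsins described here. Proteases and inhibitors thus shared a direction in the called members of these lists.

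Structural and acidifying parts of the lysosome were also higher in most tested members. Of 12 membrane protein genes, 11 were called higher and 0 lower, led by Lamp2 (342 ± 33.3 against 54.5 ± 7.46 TPM, SD, log2 change 2.63), the chloride channel partner Ostm1 (1.57) and the sialic acid exporter Slc17a5 (1.54). Of 15 subunits and partners of the V-ATPase, the proton pump that acidifies the lumen, 13 were higher and 0 lower, with Atp6v0d1 at 1.53, Atp6v0a1 at 1.42 and Atp6ap2 at 1.28. Of 19 glycosidases and sulfatases, 16 were higher and 0 lower, led by Galc (1.83), Neu1 (1.77) and Fuca1 (1.74). The medians of these 3 lists were 1.04, 0.70 and 1.22, beside -0.20 over all genes. Of all genes, 21.7% were called higher and 40.2% lower.

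Other lists were mixed, beside 21.7% of all genes called higher and 40.2% lower in the same comparison. Of 19 lipases, peptidases and activators, 12 were called higher and 3 lower. Napsa, an aspartic protease of AT2 cells, was 47.2 ± 30.0 TPM in organoids and listed at 0 in all 4 tips. Pla2g7, which encodes a secreted phospholipase, fell by 2.31, and Npc2, a cholesterol carrier, rose by 2.02. Of 9 genes for mannose 6-phosphate sorting, 4 were higher and 3 lower. Gnptg (1.33) and Gnptab (1.20), subunits of the enzyme that makes the tag, rose, and Igf2r, the large tag receptor, fell from 63.8 ± 14.3 to 30.1 ± 4.97 TPM (SD, -1.05). Of the 4 TFEB family factors, 3 were tested and 2 were higher, Mitf (1.36) and Tfe3 (0.58). All 8 listed genes for MHC class II antigen presentation, in which peptides are loaded in lysosome-like compartments, were higher, with Cd74 at 7.30.

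For culture day in organoids, 10 of the 94 tested genes of these lists were called (10.6%), near the share of 9.64% over all genes. Serpinb9, the serine protease inhibitor gene, rose by 1.62 on the log2 scale over 21 days (adjusted p = 0.000749, limma). It was the 1 called of 5 tested genes of the inhibitor list. The sulfatase gene Arsa rose by 0.89 and the mannosidase gene Man2b1 fell by 0.70, the only calls among 19 glycosidases and sulfatases. Cd63, a tetraspanin of lysosomes, fell by 0.58 as the 1 call among 12 membrane protein genes. Of 15 V-ATPase genes, Atp6v1b2 rose by 0.52 and Atp6ap1 fell by 0.43. MHC class II genes had 4 of 8 called, all higher, led by H2-Ab1 (5.17), H2-Aa (4.90) and Cd74 (4.01). None of the lists had a called member for start stage or for embryonic day in tips.

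**Figure D4:**
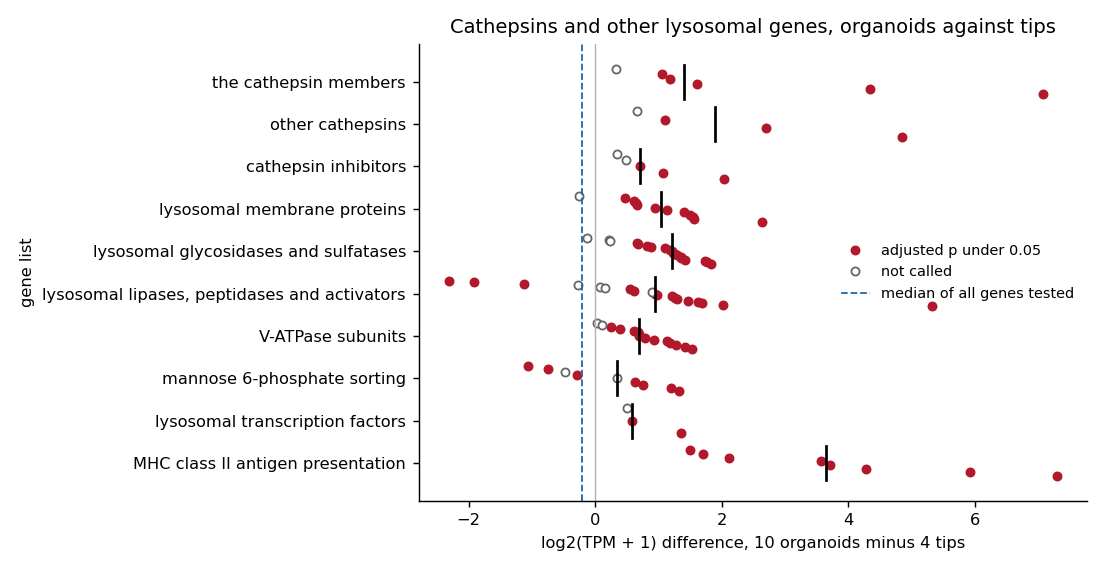
Log2(TPM + 1) differences between 10 organoid and 4 tip libraries for each tested gene of the cathepsins and of 9 lists, filled where the adjusted p was under 0.05. Black bars mark each list's median and the dashed line the median of all genes tested at -0.20. Most filled points lie to the right of 0, with exceptions among lipases and sorting genes.

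The numbered culture groups other than ALL-VC gave few differences among cathepsins. Between ALL-FGF10 and ALL, 0 of 6 were called, where 1.83% of all genes were, and no absolute log2 change exceeded 0.20. Ctsd alone had values without overlap, at 228.74 and 255.49 TPM in ALL-FGF10 and 262.93 and 273.10 TPM in ALL (log2 change -0.15, SE 0.15, adjusted p = 0.622, limma). Between ALL-MTG and ALL, 0 of 6 were called, where 0.513% of genes were. Ctsc was 374.02 and 431.92 TPM in ALL-MTG and lower than both ALL values, with a log2 change of -0.69 (SE 0.16, adjusted p = 0.144, limma). Ctsh was 967.48 and 945.41 TPM in ALL-MTG, also below both ALL values (-0.52, adjusted p = 0.498, limma). With n = 2 in each group such separation arises easily, and its share over all genes was not counted.

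Between ALL-FGF10 and ALL-MTG, 1 of 6 was called, where 3.52% of genes were called and 1.78% higher. Ctsc was 703.73 and 684.19 TPM in ALL-FGF10, above both ALL-MTG values (log2 change 0.79, SE 0.16, adjusted p = 0.0473, limma). This call stood close to the threshold and was lost under several alternatives, among them leaving out any 1 of ALL-VC, ALL-MTG or ALL-FGF10 libraries, with adjusted p up to 0.349. Without an ALL library it was kept. Cell type markers moved with this contrast: 5 of 7 AT2 markers were called higher (median log2 change 0.93) and 4 of 6 lung epithelium markers lower (-1.18), and their part in the Ctsc level was not tested. In the unnumbered set, the values of Ctsc were 415.84 TPM in 2C, 239.43 in 2C+MTG and 517.39 in 2C+F10.

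Among the other lysosomal genes of these groups, Galc, the galactosylceramidase, rose in ALL-FGF10 against ALL (77.3 ± 4.08 against 32.0 ± 0.990 TPM, SD, n = 2 each, log2 change 1.25, adjusted p = 0.020, limma). Serpinb6a, an intracellular serine protease inhibitor gene, fell by 0.84 (adjusted p = 0.0426) and H2-DMa by 1.38 (adjusted p = 0.0467). In ALL-MTG against ALL, Cd74 (-1.73), H2-Aa (-2.58) and H2-Ab1 (-2.45) were the called members of the lists, and in ALL-FGF10 against ALL-MTG they were Ctse (-2.49) and Serpinb6a (-1.05). These contrasts share libraries. In ALL-VC against ALL, past a log2 difference of 1 without a test, were Hexa (-2.34), the phosphatase gene Acp5 (-3.11), Napsa (-2.20), Igf2r (1.06) and 7 of 8 MHC class II genes, which were lower. No V-ATPase subunit and no membrane protein gene was past it, where 8.62% of all genes were and 4.16% were lower.

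The LO libraries had 1 library each and no test. Ctsh was 182.27 TPM in LO_day8, 253.40 in LO_day11 and 1453.83 in LO_day18. Ctsc was 105.41, 139.64 and 519.81 TPM in the same libraries. Between LO_day18 and LO_day8, Ctsh (log2 difference 2.99) and Ctsc (2.29) were past a difference of 1, both higher, where 19.9% of genes were past it and 7.44% were higher. Ctsz was 109.69, 135.96 and 97.58 TPM at days 8, 11 and 18, so that its day 18 value was the lowest of the 3 (-0.17 against day 8, and 0.10 after median-ratio rescaling). Between LO_day11 and LO_day8, 0 of 6 were past a difference of 1, where 5.25% of genes were.

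LO_day11_DCI held the highest Ctsh and Ctsz of the series. Ctsh was 6502.37 TPM there and 253.40 TPM in LO_day11 (log2 difference 4.68), and Ctsc was 340.92 and 139.64 TPM (1.28). Both were past a difference of 1, where 24.2% of genes were and 11.2% were higher. Ctsz was 221.27 and 135.96 TPM (0.70), and Ctsd (0.17), Ctsl (0.16) and Ctsb (-0.04) moved less, with Ctsb turning to 0.08 after median-ratio rescaling. Napsa was 524.69 TPM with DCI and 17.04 TPM without it, whereas Cd74 was 52.86 and 663.88 TPM. The AT2 marker sum was 12724, 38074 and 119805 TPM in the LO libraries at days 8, 11 and 18, and 83085 TPM with DCI. The AT1 marker sum was 305, 585 and 1267 TPM at those days and 5245 TPM with DCI, where 6 of 6 AT1 markers were higher than in LO_day11 past a difference of 1. Every AT2 marker except Sftpc was also higher with DCI past that difference, from Abca3 (2.77) to Slc34a2 (6.17). The 4 distal tip markers (Sox9, Id2, Etv5 and Bmp4) summed to 1451 TPM in LO_day11 and 412 TPM with DCI. Of 3 mesothelium markers, Msln was 6.19 and 277.23 TPM, and the other 2 (Wt1 and Upk3b) were listed at 0 in both libraries. The part of these markers in the Ctsh levels was not tested.

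In the 2C libraries, Ctsh was 663.10 TPM in 2C, 645.00 in 2C+MTG, 1524.43 in 2C+F10, 2179.13 in 2C+VC and 1811.61 in the unnumbered ALL library. Past a log2 difference of 1 from 2C were Ctsh alone in 2C+F10 (1.20, where 5.9% of genes were past it and 3.08% higher) and none in 2C+MTG (7.52% of genes). Ctsz and Ctsh were past it in 2C+VC (1.71 for Ctsh, where 9.61% of genes were past it and 5.81% higher) and in the unnumbered ALL library (1.45 for Ctsh, where 12.3% of genes were past it and 4.89% higher). Ctsd stayed between 238.02 and 299.97 TPM, Ctsb between 203.53 and 342.82, and Ctsl between 142.15 and 200.22 TPM over these 5 libraries. The AT2 marker sum was 27087 TPM in 2C, 44292 in 2C+MTG, 28845 in 2C+F10, 75716 in 2C+VC and 111698 in the unnumbered ALL library. The AT1 marker sum was 1013, 1283, 1738, 2501 and 2274 TPM in the same order. Sftpc alone was 24913.03 TPM in 2C, so the AT2 sum mostly followed that gene. Past a log2 difference of 1 from 2C, Sftpb (1.34) was higher in 2C+MTG, and Slc34a2 (-1.07), Lamp3 (-1.11) and Lyz2 (-3.15) were lower. In 2C+F10 the AT2 markers past it were Sftpb (1.26), Sftpa1 (1.48) and Lyz2 (2.44), all higher. In 2C+VC, where Ctsz and Ctsh were past that difference, 7 of 7 AT2 markers and 6 of 6 AT1 markers were also past it and higher. In the unnumbered ALL library 5 of 7 AT2 markers were higher past it and 1 was lower, and 4 of 6 AT1 markers were higher. Of the AT1 markers, 3 were higher past it in 2C+F10 and 1 was lower in 2C+MTG. The mesenchyme markers summed to 3.64 TPM in 2C and 99.96 TPM in 2C+F10, where Ctsh alone was past the fold. The part of these markers in the Ctsz and Ctsh levels was not tested.

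The libraries of organoid pieces were described by the spread of each cathepsin. The named positions overlap one another, so their spread may hold differences between organoids as well as between parts. Ctsz was 165.79 TPM in the intact organoid and 123.22 TPM at the lowest, 177 at the median and 195.77 at the highest of the 8 pieces. The low piece was the up-half, while the up-half-left and up-half-right were 177.93 and 166.95 TPM. Ctsh was 1673.72 TPM in the intact organoid, below all pieces (1737.28 to 3067.18 TPM), and Ctsd (273.71 against 275.53 to 360.25) and Ctsb (297.33 against 298.94 to 373.80) were likewise just below the lowest piece. Ctsc (858.35 against 679.32 to 1045.18) and Ctsl (159.70 against 155.50 to 229.05) lay within the range of the pieces. The coefficient of variation over the pieces was 7.82% for Ctsb, 10.2% for Ctsd, 12.6% for Ctsz, 14.6% for Ctsl, 15.0% for Ctsc and 22.4% for Ctsh. With 1 intact library no test was made.

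Over the 8 numbered libraries, the genes other than cathepsins with levels most like Ctsz, by Pearson correlation of log2(TPM + 1) among 10120 genes, were Gtpbp2 (r = 0.993), Gstt2 (0.979), Hexa (0.979), Cd200 (0.977) and Cabcoco1 (0.976). These values describe 8 libraries in which the ALL-VC pair sets the correlation, and carry no p. Hexa, encoding the alpha subunit of beta-hexosaminidase, was 7.80 and 20.93 TPM in ALL-VC and 66.76 to 72.25 TPM in ALL. It was 18.41 TPM in 2C, 18.70 in 2C+MTG, 27.12 in 2C+F10 and 46.62 in 2C+VC. The glutathione transferase gene Gstt2 was 9.03 and 10.71 TPM in ALL-VC and 58.16 to 72.91 TPM in ALL, and 9.67 TPM in 2C against 56.34 TPM in 2C+VC. Gtpbp2, in contrast, was 39.36 to 42.00 TPM in ALL-VC and 60.53 to 61.20 TPM in ALL, and 60.90 TPM in 2C. Hexa and Gstt2 were thus lower in 2C, 2C+MTG and 2C+F10 than in 2C+VC and the unnumbered ALL library (52.28 and 69.83 TPM), as Ctsz was. Cabcoco1 was 0, 1.79 and 2.74 TPM in 2C+MTG, 2C and 2C+F10, and 6.04 and 8.11 TPM in the unnumbered ALL library and 2C+VC, the same split. With 1 library each, the order within either side of the split cannot be read. Cd200 was 11.11 TPM in the unnumbered ALL library, below its 14.10 TPM in 2C, and so did not share the split.

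Over the 14 tip and organoid libraries, the 5 most alike among 11140 genes were Tceal1 (r = 0.932), Tgm2 (0.852), Scara3 (0.841), Ldhb (0.825) and Gas5 (0.820). Without the E9.5 organoid (n = 13) these became 0.621, 0.853, 0.751, 0.130 and 0.489, so that the likeness of Ldhb rested mostly on that library, and that of Tceal1, Scara3 and Gas5 was weaker without it. Tceal1 was 1.48 TPM in the E9.5 organoid, 0.61 and 0.83 TPM in ALL-VC and 5.01 to 5.84 TPM in ALL. It was 0.25 TPM in 2C, 0.17 in 2C+MTG and 0.89 in 2C+F10, against 4.72 TPM in 2C+VC and 4.95 in the unnumbered ALL library. Tgm2, Scara3, Ldhb and Gas5 did not share that split. Tgm2 was 31.83 TPM in 2C and 23.42 in 2C+VC, and Gas5 was 920.69 and 355.27 TPM. Scara3 was 3.36 TPM in 2C+MTG and 1.99 in 2C+VC, and Ldhb was 153.68 and 152.06 TPM. Among cathepsins, the correlation with Ctsz over the 8 numbered libraries was 0.76 for Ctsb, 0.29 for Ctsl, 0.14 for Ctsh, -0.42 for Ctsc and -0.57 for Ctsd.

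**Figure D5:**
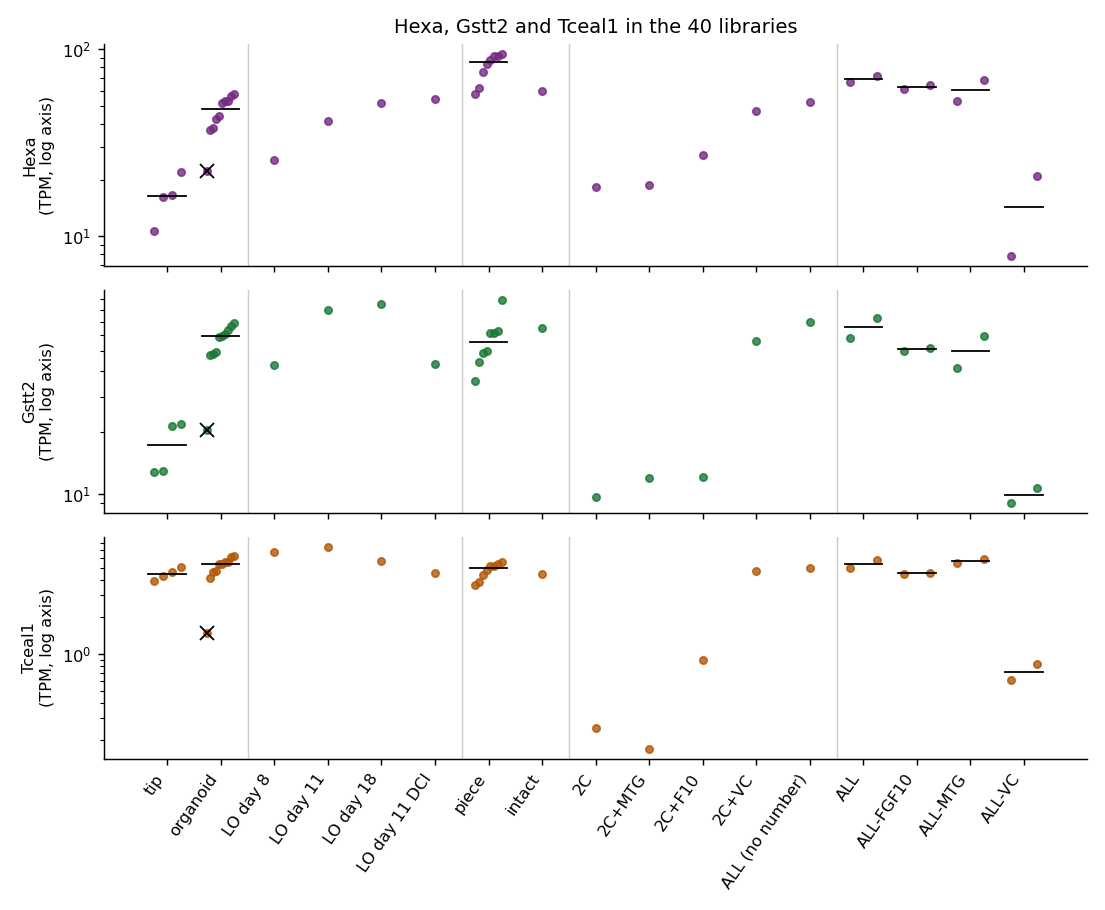
Levels of Hexa, Gstt2 and Tceal1, chosen for display after their values were seen from the 10 genes most like Ctsz, in the 40 libraries (TPM, log axes), grouped by label, with points sorted by value within a group, bars at the medians and a cross on the organoid from E9.5 at 13 days. In ALL-VC, Hexa stands at 7.80 and 20.93 TPM, and Tceal1 at 0.61 and 0.83 TPM.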

How the data were processed

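Total RNA from mouse lung tips and organoids was made into mRNA libraries, per the labels' protocols. The authors deposited TPM values per gene in 5 tables, made with RSEM and Bowtie2 on mm10, per the submitters' processing notes, which give no versions. TPM keeps no depth, so counting precision is unknown. Columns were tied to samples through their titles, which placed 40, and 1 column that fitted no sample was not used.

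Differences were taken on log2(TPM + 1), so a fold change of a low gene is understated. Tests used limma 3.58.1 in R 4.3.3 (lmFit, eBayes with trend, two-sided) over genes that reached 1 TPM in 2 or more libraries, with Benjamini-Hochberg adjustment over all genes and calls made where the adjusted p was under 0.05. A joint fit held all 8 numbered libraries. Organoids and tips were compared as groups, and a second fit gave slopes on culture day, start stage and embryonic day, scaled to 21, 4.5 and 3 days. Contrasts with ALL-VC carry no p. Single libraries were counted past a log2 difference of 1 if the higher one reached 5 TPM. The scripts were tested on simulated data. Alternatives were the pseudocount, the filter, median-ratio and quantile scaling, a replicate block, fits of only the groups compared and leaving out libraries.

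The cathepsins and the lists were chosen with earlier results of these data known. All 7 cathepsins were named, with up to 3 called genes per list and contrast that reached 5 TPM, and the 5 genes most correlated with Ctsz in each of 2 sets of libraries. Genes past the fold in contrasts without a test were named after their values were seen.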

Additional observations from a re-analysis of the deposited data

Results flagged for a closer look

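Of 20 combinations of a cathepsin and a group of 4 to 10 libraries, 2 held a library whose gap to its nearest neighbor, relative to the range of the group, exceeded the 95% critical value of Dixon's test. Chance flags about 1 in 20 groups of normally spread values, a rate that does not hold for a gene mostly listed at 0. Ctsz was 12.15 TPM in the organoid from E9.5 at 13 days, where the other 9 organoids were at 95.65 TPM or more (gap over range 0.719, critical value 0.466, n = 10). In that library Ctsd was the highest of the organoids (235.75 TPM) and Ctsb the lowest (180.08 TPM), while Ctsh (907.64 TPM) and Ctsc (421.52 TPM) lay inside the range of the others. Of the 5 genes most like Ctsz over the 8 numbered libraries, it was the lowest organoid for Hexa (22.19 TPM), Gstt2 (20.44 TPM) and Cabcoco1 (0.28 TPM). It was not the lowest for Gtpbp2 (64.72 TPM) or Cd200 (22.21 TPM). Tceal1 (1.48 TPM) was also lowest there, but it was picked as like Ctsz with this library in the set, so its low value adds nothing separate. The E9.5 organoid is the 1 library from that stage, so stage and library cannot be told apart.

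Ctss was 0.15 TPM in the organoid from E13.5 at 19 days and listed at 0 in the other 9 (gap over range 1.0). With the others all at 0, any value above 0 gives that ratio, so this flag carries no information. A value this low at unknown depth may rest on very few reads.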

How the results depend on the processing

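The counts of cathepsins called or past the fold kept their value in 146 of 156 alternative results. Part of this was fixed in advance. The 156 include the contrasts with ALL-VC, whose count rests on Ctsz, the gene that guided the choice. They also include settings that cannot alter an estimate. Ctsz in ALL-VC against ALL stayed at -4.905 without either ALL-MTG or either ALL-FGF10 library. The 10 that moved all concern ALL-FGF10 against ALL-MTG, where the count went from 1 to 0. For that count, the alternatives giving 0 were a pseudocount of 0.1 TPM (adjusted p of Ctsc 0.0559), no filter on low TPM (0.0968), the replicate block (0.07) and a fit of only those groups (0.05 after rounding, not called). Leaving out 1 numbered library gave counts of 0 to 1, with 0 without either library of ALL-VC (0.0967 and 0.097), ALL-MTG (0.14 and 0.0644) or ALL-FGF10 (0.344 and 0.349). The log2 change of Ctsc ran from 0.68 to 0.89. Among 936 alternative values of single cathepsins none was reversed on a call, 1 became called (Ctsz in organoids against tips without the E9.5 organoid, 0.63), and 10 lost a call (Ctsc, as above). The replicate block changed no other cathepsin call. Correlations of the deviations of same-numbered libraries ran from -0.07 to 0.11, so the numbers were not taken to pair them.

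Over all genes, counts moved more. For ALL-FGF10 against ALL the 271 calls became 143 with the block, 9 without ALL-FGF10 replicate 2 and 1149 without ALL replicate 1. For ALL-MTG against ALL the 76 became 48 with the block, 7 without a filter and 191 without ALL-MTG replicate 2. For ALL-FGF10 against ALL-MTG the 521 became 19 without ALL-FGF10 replicate 1 and 838 without ALL replicate 2. The genes past the fold in ALL-VC against ALL, 925, became 820 without ALL replicate 2 and 1668 without replicate 1. For the slopes on culture day, start stage and embryonic day, 1617, 9 and 123 calls became 430 to 1825, 2 to 10 and 14 to 335, with the 430 found without the organoid from E10.5 at 32 days and the 14 without the E13.5 tip. The background shares beside the cathepsin counts carry this uncertainty. Depth is unknown and no interval from counting can be given.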
